A study of Mus musculus with 6 samples.

Results

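The 10 genes described here act in procollagen export and were followed in mouse osteoblasts cultured with or without verapamil, a drug that blocks L-type calcium channels. They were the rows of the deposited count table whose symbol was Creb3l1, Creb3l2, Sec23a, Sec24d, Sec31a, Sar1a, Sar1b, Mia3, Kdelr3 or Serpinh1. All 10 were present among the 17491 genes of the table, and all 10 passed the low-count filter that kept 13366 genes for testing. The verapamil group held 3 libraries and the control group 3 libraries, all of total RNA. In both groups the cells were wildtype osteoblasts grown out of mesenchymal stem cells of tibial and femoral marrow, and both were sampled at day 7 of osteogenic differentiation, driven by ascorbic acid, β-glycerophosphate and dexamethasone. The sources used here give neither the dose of verapamil nor the length of exposure. Since no label ties a replicate to its own culture or animal, p-values here reflect only how far these libraries differ from one another, and that spread may be technical.

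Osteoblasts fill bone matrix with type I collagen, which is folded in the endoplasmic reticulum (ER) as a long, stiff procollagen trimer and must leave it in COPII-coated carriers. The GTPase SAR1 starts a carrier at an ER exit site and recruits the inner coat of SEC23 and SEC24 and the outer coat of SEC13 and SEC31. The receptor TANGO1, the product of Mia3, links procollagen and its chaperone HSP47, the product of Serpinh1, to that coat, and KDEL receptors bring escaped ER proteins back from the Golgi. CREB3L1, also called OASIS, and CREB3L2, also called BBF2H7, are membrane-bound transcription factors that are cut in the Golgi and enter the nucleus. In mice, loss of Creb3l1 thins bone, and Creb3l2 drives Sec23a in cartilage cells.

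The deposited values were estimated read counts, which summed to 18.2 M to 21.7 M reads per verapamil library and 20.1 M to 21.7 M per control library. Levels are given as CPM (counts scaled to library size) after TMM scaling, as mean ± SD with n = 3 per group. Log2 fold changes are those of verapamil over control with a standard error (SE), and a gene passed at an adjusted p under 0.05 in edgeR's quasi-likelihood test, adjusted over all 13366 genes by Benjamini-Hochberg. Osteoblast markers, checked because of the labelled cell type, were all 10 detected and all 10 fell with verapamil, while 16.3% of all genes were lower. Their summed level was 4225 to 4652 CPM in verapamil and 7069 to 9716 CPM in control libraries. Most of that sum was Ibsp, with 3555 to 3971 CPM in verapamil and 5985 to 8346 CPM in control libraries. Macrophage and monocyte markers were also abundant. Of 14, 11 rose and 3 (Csf1r, Fcgr1 and Mrc1) did not pass, while 15.4% of all genes were higher. Their sum was 17179 to 19335 CPM in verapamil and 9606 to 12037 CPM in control libraries. The largest part of it was Lyz2, with 10336 to 12101 CPM in verapamil and 4360 to 6329 CPM in control libraries. The median log2 fold change of the 14 was 0.53. Chondrocyte markers summed to 98.2 to 138 CPM in verapamil and 274 to 653 CPM in control libraries, with all 4 tested of 6 lower. Adipocyte markers summed to 204 to 234 CPM in verapamil and 163 to 195 CPM in control libraries, with 1 higher and 1 lower of 3 tested. The higher was Fabp4, at a mean of 135 CPM with verapamil and 89.6 CPM in control. Adipoq did not pass (85.3 CPM with verapamil, 89.2 CPM in control), and Plin1, the lower, had few reads (0.464 and 1.3 CPM). Endothelial markers summed to 39.7 to 40.7 CPM in verapamil and 48.9 to 51.4 CPM in control libraries, with 2 of 5 lower. Of the 6 neutrophil markers, 2 were not in the table and the other 4 summed to 1.65 CPM at most in verapamil and 1.08 CPM at most in control libraries. Control replicate 2 stood apart, among other genes, by 12 hypoxia response genes, a list added after the libraries were seen. These genes are thus a description, and they summed to 1802 CPM there. Their sum was 1113 and 709 CPM in control replicates 1 and 3 and 429 to 482 CPM in the verapamil libraries. With verapamil 9 of these 12 were lower and 3 did not pass, at a median log2 fold change of -1.7. The chondrocyte marker Col2a1 was also highest in control replicate 2, at 573 CPM, against 256 and 186 CPM in control replicates 1 and 3.

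With verapamil, 9 of the 10 genes fell and 1, Sar1b, rose. In the same test 31.7% of all genes passed, 16.3% lower and 15.4% higher, and 48.5% of those passing were higher with TMM scaling, against 63.7% with scaling by library totals. The median log2 fold change was -0.35 over the 10 genes and 0.01 over all genes tested. Groups did not overlap in any of the 10 genes, nor in 49.6% of all genes. The verapamil libraries were all below the controls in 9 of the 10 and in 24.4% of all genes, and all above them in 1 of the 10 and in 25.2% of all genes. The 10 were proposed with earlier results of these libraries known, so their count is a description. In bulk RNA, fewer cells of a type and less RNA per cell cannot be told apart, and the part of the shift in osteoblast and macrophage markers in these changes was not tested. The largest falls among the 10 were those of Creb3l1, Kdelr3 and Serpinh1, to 0.484, 0.526 and 0.557 times the control level, while the coat genes and Mia3 fell by 17.7% to 23.7%.

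**Figure D1:**
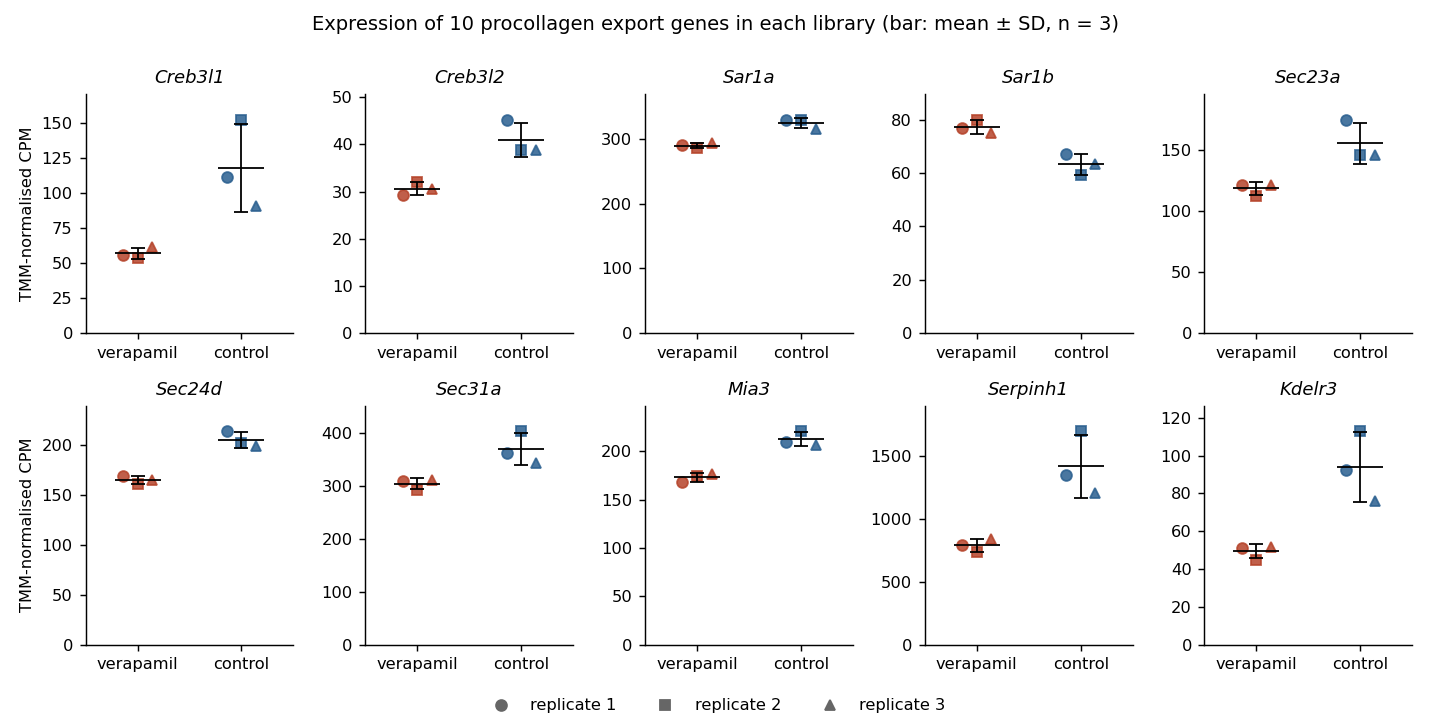
TMM-normalised CPM of the 10 genes, each in its own panel with an axis from 0. Points are libraries (verapamil left, control right), and the black bar is the mean ± SD of 3 libraries. The verapamil libraries lie below the controls in 9 panels and above them for Sar1b, and the spread relative to the mean is widest among the controls of Creb3l1 (90.5 to 152 CPM, a coefficient of variation of 26.6%).

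The transcription factor gene Creb3l1 (Entrez 26427, GRCm38 chromosome 2, 91982328 to 92024170, minus strand) had 56.0, 53.8 and 61.4 CPM in verapamil replicates 1, 2 and 3, against 111, 152 and 90.5 CPM in control replicates 1, 2 and 3. Every verapamil library lay within a narrow band well below the lowest control, while control replicate 2 was far above the other controls. The means were 57.1 ± 3.90 CPM with verapamil and 118 ± 31.3 CPM in control, a log2 fold change of -1.05 ± 0.18 SE (95% interval -1.48 to -0.61, adjusted p = 0.00689). Its relative Creb3l2 (Entrez 208647, chromosome 6, 37327255 to 37442276, minus strand) had 29.3, 32.1 and 30.6 CPM in the verapamil libraries, against 45.2, 38.8 and 38.8 CPM in the controls. Here control replicate 1 was the highest library and replicate 2 was level with replicate 3. The log2 fold change of Creb3l2 was -0.42 ± 0.08 SE (adjusted p = 0.00575). The ratio of Creb3l1 to Creb3l2 reads within a library was 1.91, 1.68 and 2.01 with verapamil and 2.46, 3.92 and 2.33 in control.

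Of the SAR1 GTPases, which switch coat assembly on, one was lower and the other higher. Sar1a (Entrez 20224, chromosome 10, 61680285 to 61693297, plus strand) had 290, 285 and 293 CPM with verapamil, against 329, 329 and 315 CPM in control. The groups were separate but close, at 289 ± 4.37 CPM with verapamil and 324 ± 8.0 CPM in control. The log2 fold change was -0.16 ± 0.05 SE, with adjusted p = 0.04998 in edgeR's test, just inside the threshold. The call of Sar1a was lost without verapamil replicate 1, 2 or 3 (adjusted p = 0.142, 0.172 and 0.123) or control replicate 1 (adjusted p = 0.124), and with scaling by library totals its fold change was -0.08 (adjusted p = 0.27). Sar1b (Entrez 66397, chromosome 11, 51763663 to 51791953, plus strand), the form that human lipoprotein secretion depends on, had 76.7, 79.9 and 75.0 CPM with verapamil, against 67.2, 59.2 and 63.4 CPM in control. All verapamil libraries were above all controls, by a margin of 0.16 on the log2 scale between the nearest libraries. Sar1b rose by 0.29 ± 0.06 SE on the log2 scale (95% interval 0.14 to 0.43, adjusted p = 0.0108), a call lost without verapamil replicate 1 or 2 (adjusted p = 0.0521 and 0.0608). The Sar1a to Sar1b read ratio was 3.79, 3.56 and 3.91 in the verapamil libraries and 4.89, 5.56 and 4.97 in the controls. No stretch of 50 bases of either longest transcript stood in a transcript of another gene, including the other SAR1 gene.

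The 3 coat subunits were lower with verapamil. Sec23a (Entrez 20334, chromosome 12, 58958384 to 59012017, minus strand), the inner coat subunit that stimulates SAR1, had 122, 113 and 122 CPM with verapamil, against 175, 146 and 146 CPM in control. Control replicate 1 was the highest library, and the other controls were level. The log2 fold change of Sec23a was -0.39 ± 0.08 SE (adjusted p = 0.00838). Sec24d (Entrez 69608, chromosome 3, 123264801 to 123365641, plus strand), a cargo-binding inner coat subunit, had 169, 161 and 165 CPM with verapamil, against 214, 202 and 199 CPM in control. It varied little among replicates, at 165 ± 3.64 CPM with verapamil and 205 ± 8.07 CPM in control, and fell by 0.31 ± 0.05 SE (adjusted p = 0.00423). Sec31a (Entrez 69162, chromosome 5, 100361649 to 100416273, minus strand) encodes the rod of the outer coat. It had 309, 292 and 310 CPM with verapamil, against 361, 403 and 343 CPM in control, with control replicate 2 highest. Sec31a fell by 0.28 ± 0.07 SE (adjusted p = 0.0216), but not past the test without any 1 of verapamil replicates 1, 2 and 3 (adjusted p = 0.071, 0.0938 and 0.0618) or without control replicate 1 (adjusted p = 0.0592).

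Mia3 (Entrez 338366, chromosome 1, 183326236 to 183369565, minus strand), which encodes the procollagen receptor TANGO1, had 168, 175 and 177 CPM with verapamil, against 210, 221 and 207 CPM in control. Both groups were tight, at 174 ± 4.83 CPM with verapamil and 212 ± 7.17 CPM in control. Its log2 fold change was -0.29 ± 0.05 SE (adjusted p = 0.00553). Serpinh1 (Entrez 12406, chromosome 7, 99345375 to 99353239, minus strand), whose product HSP47 holds the procollagen helix until it reaches the Golgi, was the most abundant of the 10. It had 792, 736 and 836 CPM with verapamil, against 1343, 1694 and 1205 CPM in control. Every control lay above every verapamil library by at least 0.527 on the log2 scale, and control replicate 2 was again the highest. Serpinh1 averaged 788 ± 50.2 CPM with verapamil and 1414 ± 252 CPM in control (-0.84 ± 0.13 SE, adjusted p = 0.00215).

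Kdelr3 (Entrez 105785, chromosome 15, 79516408 to 79527739, plus strand), a retrieval receptor for ER proteins with a KDEL-type tail, a signal HSP47 also carries, had 51.1, 45.0 and 51.9 CPM with verapamil. Its control libraries had 92.4, 113 and 76.2 CPM, all higher, with replicate 2 the highest. Kdelr3 fell by 0.93 ± 0.14 SE on the log2 scale (95% interval -1.25 to -0.60, adjusted p = 0.00312). Of its 2 relatives, Kdelr2 fell as well, with 125 ± 8.98 CPM with verapamil and 179 ± 17.0 CPM in control (-0.52 ± 0.08 SE, adjusted p = 0.00299). Kdelr1, named after its value was seen, was at 152 ± 4.70 CPM with verapamil and 167 ± 6.92 CPM in control (-0.13 ± 0.06 SE, adjusted p = 0.107).

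**Figure D2:**
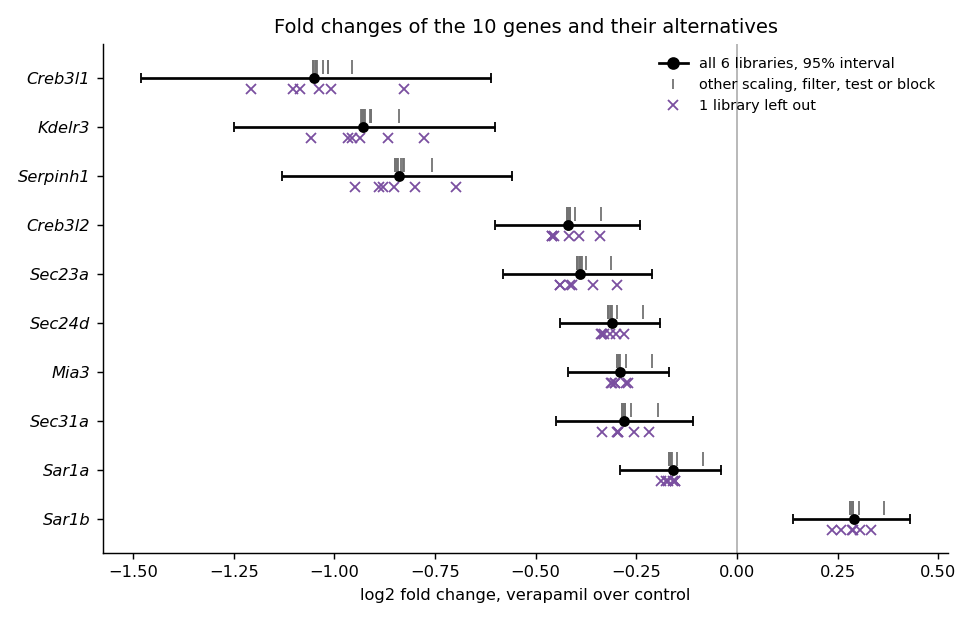
Log2 fold change of verapamil over control for each of the 10 genes (horizontal axis), with the 95% interval from all 6 libraries (black), 9 other scalings, filters, tests or designs (grey ticks) and each library left out in turn (crosses). All estimates of a gene stay on 1 side of 0, and those of Creb3l1, Kdelr3 and Serpinh1 range from -1.21 to -0.70.

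The 10 genes did not vary alike among the control libraries. The coefficient of variation over 3 controls was 26.6% for Creb3l1, 19.6% for Kdelr3 and 17.8% for Serpinh1, and 2.47% to 10.7% for the other 7, while no gene exceeded 7.64% over the verapamil libraries. Creb3l1, Kdelr3 and Serpinh1 shared 1 order among controls, with replicate 2 highest, replicate 1 next and replicate 3 lowest, as had Sec31a, Mia3 and the hypoxia response genes (1802, 1113 and 709 CPM in sum). The log2 deviations of Creb3l1, Kdelr3 and Serpinh1 from the control mean in replicate 2 were 0.40, 0.28 and 0.28, those of Sec31a and Mia3 0.13 and 0.05. Creb3l2, Sec23a and Sec24d instead deviated by -0.07, -0.08 and -0.02 there and were highest in replicate 1. Without control replicate 2 the log2 fold changes were -0.83 for Creb3l1 (adjusted p = 4.99e-04), -0.78 for Kdelr3 (adjusted p = 5.51e-04) and -0.70 for Serpinh1 (adjusted p = 9.31e-05), so all 3 passed edgeR's test without that library. The part of the hypoxia response in these levels was not tested.

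**Figure D3:**
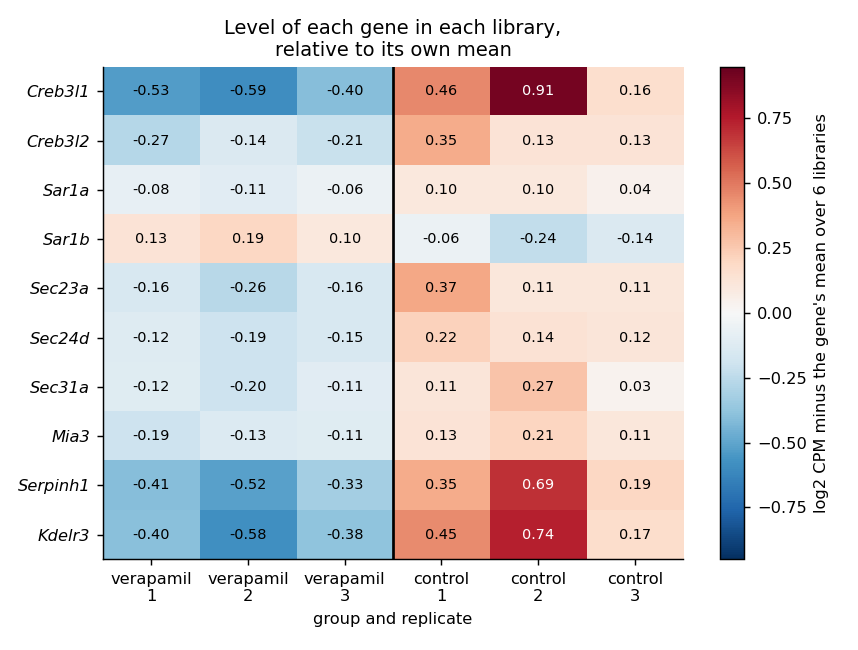
Log2 CPM of each gene in each library minus the gene's mean over all 6 libraries (colour and printed value), with verapamil libraries left of the line and controls right. The deepest colours are those of Creb3l1, Serpinh1 and Kdelr3, which are highest in control replicate 2, and Sar1b runs the opposite way.

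Divided by the length of the longest GENCODE transcript, the levels could be set in order, save for Mia3, whose locus GENCODE tags as fragmented. In the verapamil libraries Serpinh1 was at the top with 324 to 368 CPM per kb, followed by Sar1a (109 to 112), Sec31a (69.1 to 73.4), Sar1b (62.5 to 66.5), Sec24d (41.3 to 43.2), Kdelr3 (31.9 to 36.8), Sec23a (27.4 to 29.7), Creb3l1 (20.7 to 23.6) and Creb3l2 (4.14 to 4.53 CPM per kb). No neighbours in that order overlapped. In the controls Serpinh1 (530 to 745 CPM per kb), Sar1a (121 to 126) and Sec31a (81.0 to 95.4) again came first, and Creb3l2 (5.48 to 6.39) last. Between them Kdelr3 (54.0 to 80.0), Sar1b (49.3 to 55.9), Sec24d (51.0 to 54.9), Creb3l1 (34.8 to 58.4) and Sec23a (35.5 to 42.6 CPM per kb) followed by mean, and each overlapped its neighbour. Kdelr3 was thus above Sec24d by mean in the controls and below it in every verapamil library. If other isoforms are the ones expressed, these per-length levels shift.

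Messages for the cargo itself fell too. All 12 genes of the list for procollagen and matrix cargo fell, with and without each library in turn, at a median log2 fold change of -1.0. Over all genes, 16.3% were lower with all 6 libraries. Col1a1, the main chain of bone collagen, was at 5387 ± 540 CPM with verapamil and 17067 ± 4439 CPM in control (-1.66 ± 0.19 SE, adjusted p = 6.36e-04). Col6a3 fell by 1.65 and Col5a1 by 1.47 on the log2 scale. The list summed to 27726 to 31500 CPM in the verapamil libraries and 59575 to 79659 CPM in the controls. Reads of Sec24d per read of Col1a1 were 0.0329, 0.0321 and 0.0274 with verapamil, against 0.0144, 0.00910 and 0.0140 in control. For Serpinh1 the same ratio was 0.155, 0.146 and 0.139 with verapamil and 0.0904, 0.0764 and 0.0850 in control, and for Creb3l1 it was 0.0109, 0.0107 and 0.0102 with verapamil and 0.00749, 0.00686 and 0.00639 in control. Per read of Col1a1, each of these 3 genes was higher in every verapamil library than in any control. Col1a1 had the largest fall of the 12 cargo genes, and against other collagens the order can differ: Col3a1 fell by 1.0 on the log2 scale, to 1981 ± 161 CPM with verapamil, against 3948 ± 247 CPM in control, so by slightly less than Creb3l1 (-1.05).

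Ratios of 2 genes within a library, which cancel the scaling of that library, were compared for 11 pairs with a two-sided exact permutation test over the 6 libraries. Groups did not overlap for 10 pairs, each at the smallest p that 3 against 3 allows (exact p = 0.1, adjusted p = 0.11 over the 11 pairs), so none could pass. The log2 ratio of Sec23a to its paralogue Sec23b was 0.74 ± 0.11 with verapamil and 1.30 ± 0.11 in control, a difference of -0.56. Sec24d to Sec24c differed by -0.34, Sec31a to its coat partner Sec13 by -0.33, Mia3 to its paralogue Mia2 by -0.30, Sar1a to Sar1b by -0.45 and Kdelr3 to Kdelr2 by -0.39. For Creb3l1 to Creb3l2 the log2 ratio was 0.89 ± 0.13 with verapamil and 1.49 ± 0.41 in control, a difference of -0.60. Against Col1a1 the differences were 0.62 for Creb3l1, 0.81 for Serpinh1 and 1.33 for Sec24d. Groups overlapped only for Creb3l1 against Sp7, the osteoblast transcription factor, at 0.03 ± 0.05 with verapamil and -0.04 ± 0.38 in control (exact permutation p = 0.7, adjusted 0.7). Among the verapamil libraries that ratio spread by 0.05 and among the controls by 0.38, and Sp7 itself was level among the controls, at 118 ± 0.444 CPM.

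**Figure D4:**
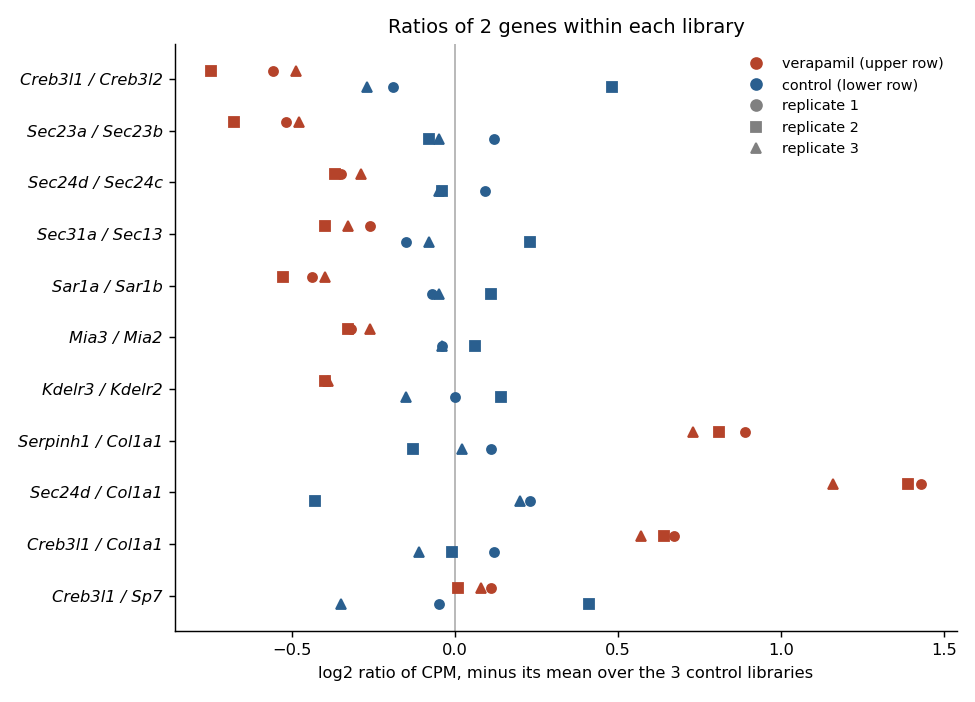
Log2 ratio of 2 genes' CPM within each library, minus its mean over the 3 controls (horizontal axis), with verapamil libraries in the upper row and controls in the lower row of each pair. Verapamil libraries lie left of all controls for the 7 pairs without Col1a1 or Sp7, right of them for the 3 ratios to Col1a1, and among them for Creb3l1 to Sp7.

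Of 15 other coat, exchange factor and exit-site genes, 3 fell, 2 rose and 10 did not pass, at a median log2 fold change of -0.04. These counts are near the background, with 16.3% of all genes lower and 15.4% higher. Sec16a, a scaffold of exit sites, had 126 ± 2.15 CPM with verapamil and 160 ± 8.93 CPM in control (-0.34 ± 0.06 SE, adjusted p = 0.00392), and its relative Sec16b fell by 0.89. Sec24a (-0.22) fell too, a call lost without any 1 of verapamil replicates 1, 2 and 3 or control replicate 1 (adjusted p = 0.0534 to 0.213 over all alternatives that lost it). Sec23b rose by 0.17 ± 0.06 SE, to 71.0 ± 2.24 CPM with verapamil, against 63.1 ± 2.05 CPM in control (adjusted p = 0.0475). Pef1, which helps a ubiquitin ligase that acts on SEC31, rose by 0.30 (adjusted p = 0.0119). When libraries were left out in turn, the call of Sec23b held only without control replicate 2 (adjusted p = 0.055 to 0.185 where lost, over all alternatives). That of Pef1 was lost without verapamil replicate 1 or 3 (adjusted p = 0.0527 and 0.0597). Thus 0 of the 15 were higher without verapamil replicate 1 or 3, and 1 without verapamil replicate 2, control replicate 1 or control replicate 3. Over all genes, 1027, 1010 and 1232 were higher without verapamil replicates 1, 2 and 3. Without control replicates 1 and 3 that number was 1216 and 2452, against 2055 with all 6 libraries. Among genes used in the ratios above, Sec24c, Sec13 and Mia2 did not pass, with Sec24c at 0.02 (95% interval -0.09 to 0.14), Sec13 at 0.05 (-0.10 to 0.20) and Mia2 at 0.01 (-0.11 to 0.12) on the log2 scale.

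Another list held 8 genes for other CREB3 family members, ATF6 factors, XBP1 and the site proteases that release membrane-bound factors. Of these 8 only Xbp1, a stress transcription factor of secretory cells, passed. It fell to 131 ± 1.45 CPM with verapamil, against 155 ± 16.3 CPM in control (-0.25 ± 0.08 SE, adjusted p = 0.0398). The list's median was -0.08, and its count of 1 lower is near the background of 16.3% of all genes. The call of Xbp1 was lost with any 1 of verapamil replicates 1, 2 and 3 or control replicate 1 left out (adjusted p = 0.072 to 0.125 where lost, over all alternatives). Without control replicate 2, 3 of the 8 were lower and 1 higher, beside 2534 lower and 2299 higher of all 13505 genes tested then. Mbtps1, encoding the site-1 protease and named after its value was seen, was at 165 ± 6.68 CPM with verapamil and 184 ± 9.20 CPM in control (-0.16 ± 0.06 SE, adjusted p = 0.0818). Creb3 stood at 79.7 ± 1.23 CPM with verapamil and 79.8 ± 7.25 CPM in control.

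Among 15 genes for KDEL receptors, the COPI coat of retrograde carriers and its ARF activators, 4 fell, 0 rose and 11 did not pass, with a median of -0.13. The background for this list and the next was 16.3% of all genes lower and 15.4% higher. Those with the largest falls were Copz2 (-0.54), a COPI ζ subunit, Kdelr2 (-0.52) and the γ subunit gene Copg1 (-0.25). Copz2 was lost without verapamil replicate 1 or 2 or control replicate 1 (adjusted p = 0.0538 to 0.0711), and Copg1 without any 1 of the verapamil libraries (adjusted p = 0.071 to 0.108 where lost, over all alternatives). The number that fell was 1 without verapamil replicate 1 or 2, 2 without verapamil replicate 3 or control replicate 1, and 7 without control replicate 2. Over all genes, 1222, 1226 and 1393 were lower without verapamil replicates 1, 2 and 3. Without control replicates 1 and 2 that number was 1455 and 2534, against 2180 with all 6 libraries. Of 30 cargo adaptors, tethers and SNAREs between ER and Golgi, 10 fell, 2 rose and 18 did not pass, with a median of -0.06. The golgin Golgb1 (-0.40), the tether Uso1 (-0.36) and the Golgi stacking gene Gorasp2 (-0.35) had the largest falls, and Trappc3 (0.25) and Rab1b (0.22) rose. With verapamil replicate 1, 2 or 3 left out, the number lower in that list was 4, 4 or 5. Rab1b was lost without any 1 of them or control replicate 1 (adjusted p = 0.0615 to 0.118 where lost, over all alternatives).

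Many genes listed for the folding of procollagen in the ER, general ER chaperones among them, fell. The list also held Tmem38b, an ER channel gene, which did not pass. Of 18 listed besides Serpinh1, 12 fell, 1 rose and 5 did not pass, at a median of -0.39, and 7 were lower without verapamil replicate 1 or 2. With all 6 libraries, 16.3% of all genes were lower and 15.4% higher. Without verapamil replicate 1, 1222 of 13501 genes were lower, and without verapamil replicate 2, 1226 of 13487. Fkbp10, a collagen prolyl isomerase, had 202 ± 13.7 CPM with verapamil and 329 ± 52.0 CPM in control (-0.71 ± 0.11 SE, adjusted p = 0.00283). The prolyl 3-hydroxylase gene P3h1 fell by 0.61 and P3h4, a partner of the collagen lysyl hydroxylase complex, by 0.60. Sdf2l1, an ER protein that works with HSPA5, rose by 0.29 (adjusted p = 0.0253), but not without any 1 of verapamil replicates 1, 2 and 3 or control replicate 1 (adjusted p = 0.0511 to 0.0946 where lost, over all alternatives). Hspa5 itself, named after its value was seen, fell by 0.56 (adjusted p = 0.0148 in edgeR's test). This list summed to 6815 to 7175 CPM in verapamil and 8075 to 10641 CPM in control libraries, with control replicate 2 the highest.

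**Figure D5:**
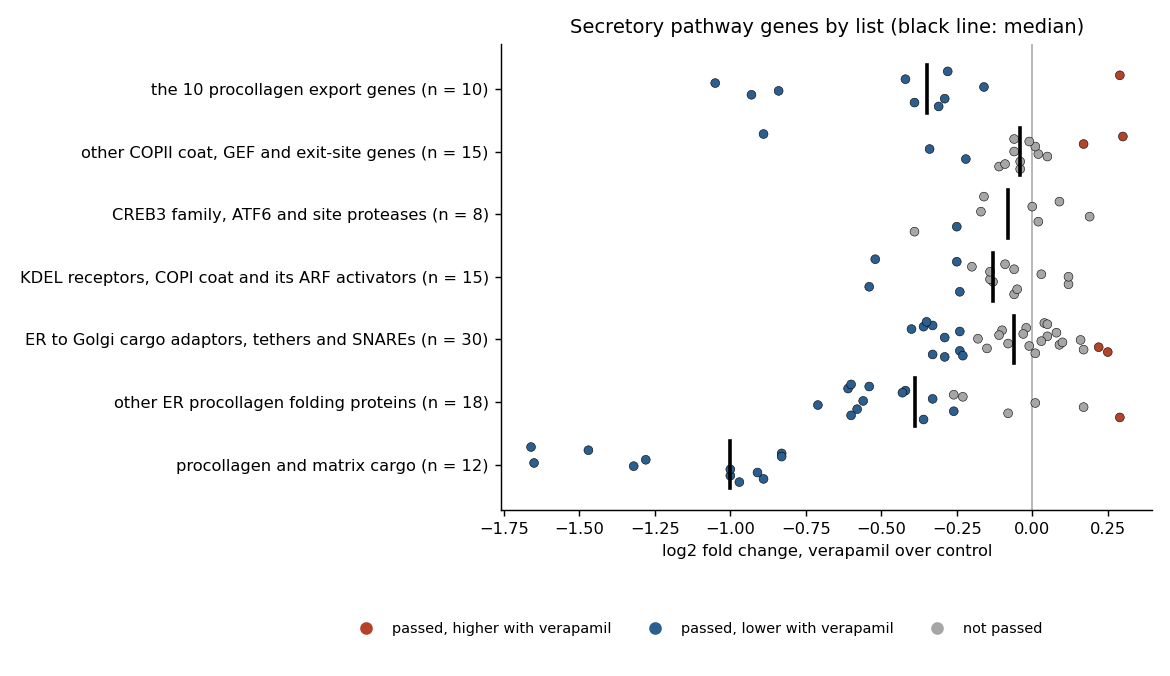
Log2 fold change of verapamil over control (horizontal axis) for each tested gene of the 10 and of 6 lists of secretory pathway genes, coloured by the outcome of edgeR's test, with the median as a black line. Medians run from -1.0 for cargo and -0.39 for the ER folding list, general chaperones included, to -0.04 for the other COPII genes.

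Among 10787 other genes averaging 5 CPM or more, those whose log2 CPM followed Creb3l1 most closely over the 6 libraries were Plaur, the urokinase receptor gene (Pearson r = 0.9996), and Hdlbp, encoding the RNA-binding protein vigilin (r = 0.9993). Cnot7, a deadenylase of the CCR4-NOT complex, Kctd20 and Fkbp11, an ER prolyl isomerase, followed at r = 0.999. Fkbp11 had 9.99, 9.38 and 10.6 CPM with verapamil, against 16.1, 20.2 and 14.2 CPM in control. The 6 libraries fall into 2 groups, so r carries the group difference along with the order of controls, and 6 points allow many genes a high r. Of the other 9 export genes, r to Creb3l1 was 0.99 to 1.0 for Serpinh1, Kdelr3 and Sec31a, between 0.82 and 0.97 for Sar1a, Mia3, Sec24d, Creb3l2 and Sec23a, and -0.95 for Sar1b.

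Promoters of 300 bases, from 250 before to 50 after the start in RefSeq on GRCm38.p6, were at hand for 9 of the 10 genes, with 10 starts since Sec31a has 2; Creb3l1 was the gene without one. They were searched on both strands for letters that factors of the CREB3 and ATF6 families are known to favour. TGACGTGG stood in the promoters of Sec23a, Sec24d and Kdelr3, 3 of 10 promoters and 3 of 9 genes, and in 0.676% of the 32851 promoters in the table. The genes were grouped around Creb3l1 and procollagen export, so these shares are a description and not a test. All 3 of those genes fell, by 0.39, 0.31 and 0.93 on the log2 scale, but so did every gene without the match except Sar1b. The 3 sequences are shown because they carry that match, in capitals, which in Kdelr3 lies on the opposite strand and so reads CCACGTCA.
Sec23a, chr12:59011968-59012267, minus strand: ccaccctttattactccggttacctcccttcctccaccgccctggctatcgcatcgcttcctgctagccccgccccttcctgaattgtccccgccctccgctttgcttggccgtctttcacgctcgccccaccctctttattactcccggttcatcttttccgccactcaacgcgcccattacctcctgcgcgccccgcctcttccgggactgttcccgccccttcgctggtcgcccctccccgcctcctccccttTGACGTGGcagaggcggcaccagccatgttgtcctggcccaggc
Sec24d, chr3:123267246-123267545, plus strand: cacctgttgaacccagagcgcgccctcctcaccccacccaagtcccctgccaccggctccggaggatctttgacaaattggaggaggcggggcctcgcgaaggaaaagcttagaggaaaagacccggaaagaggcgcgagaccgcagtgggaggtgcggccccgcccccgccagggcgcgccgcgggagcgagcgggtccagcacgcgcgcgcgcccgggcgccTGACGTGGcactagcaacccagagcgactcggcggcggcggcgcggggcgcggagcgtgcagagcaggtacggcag
Kdelr3, chr15:79516158-79516457, plus strand: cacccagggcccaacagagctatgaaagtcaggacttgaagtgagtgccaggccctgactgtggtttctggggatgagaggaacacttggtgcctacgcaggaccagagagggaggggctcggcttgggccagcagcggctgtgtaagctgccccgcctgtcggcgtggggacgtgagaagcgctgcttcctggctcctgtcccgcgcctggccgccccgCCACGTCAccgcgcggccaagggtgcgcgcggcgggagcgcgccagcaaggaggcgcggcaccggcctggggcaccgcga
Counted with the start base as 0, the match ran from 6 to 13 in Sec23a, from -26 to -19 in Sec24d and from -30 to -23 in Kdelr3. The start used for Sec24d lies inside the gene's annotated span.

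Other letters were searched in the same way. The palindrome TGACGTCA was in 0 of the 10 promoters and in 1.79% of all promoters, and the full ER stress element in 0 and 0.119%. Shorter strings, which overlap these, were commoner: CCACG, part of the reverse of TGACGTGG, was in 7 of 10 and 32.8% of all, TGACG in 6 and 20.8%, CCAAT in 4 and 37.4%. GGGCGG, the core of GC boxes, was in 8 of 10 and 35.7%. Of the 10 promoters, 9 were richer in G and C than the table's median of 52.7%, at 56.7% to 72%, and the second start of Sec31a was at 42%; these shares are not adjusted for base composition. Serpinh1, which fell by 0.84, held no TGACGTGG, nor did Sar1b, which rose. A match is only a match of letters, and no match says only that these letters are not in this window.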

How the data were processed

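RNA of 3 verapamil and 3 control osteoblast libraries was analysed from 1 table of estimated counts per gene and library, which the authors deposited without scaling to depth or gene length, per the file headers a read count. Of its values 67.7% were not whole numbers, and they were rounded. The build is GRCm38 (mm10), per the submitters' processing notes; the aligner, counting tool, annotation and use of strand were not given in the sources used here. Sec23a and Kdelr3 share 431 and 4 exonic bases with genes on the opposite strand, Gm17529 and Ddx17, whose reads could not be told apart without strand.

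Genes were filtered with filterByExpr (minimum count 10, minimum total 15), scaled by TMM and tested with edgeR 4.0.16 in R 4.3.3 (quasi-likelihood, robust, Benjamini-Hochberg), without a replicate block. The SE is the one that the F statistic implies for the fold change. Log2 CPM used a prior count of 2. Positions came from RefSeq, matched on Entrez ID, and lengths from GENCODE M21. Every replicate pair differed by more than sampling noise (chi-square per degree of freedom 3.57 to 49.9).

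The 10 genes, the pathway and marker lists and the tests were chosen with earlier results of these data known. From each pathway list, up to 3 genes passing in each direction with the largest change were named, or else the 2 most abundant, plus the genes of the ratios and the 5 most like Creb3l1. The hypoxia list was added later, after the libraries were seen. Alternatives were other scaling (DESeq2 size factors, upper quartile, library totals), no or a stricter filter (5 CPM in 3 libraries), DESeq2 1.42.0, limma-voom (limma 3.58.1), a replicate block, counts not rounded and each library left out.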

Additional observations from a re-analysis of the deposited data

How the results depend on the processing

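Under all 15 alternatives the log2 fold changes of the 10 genes kept their direction. Creb3l1, Creb3l2, Sec23a, Sec24d, Mia3, Kdelr3 and Serpinh1 passed under each of the 15. Sar1a was lost under 8 (log2 fold changes -0.18 to -0.08, adjusted p = 0.0714 to 0.27), Sec31a under 5 and Sar1b under 2. Of the 10 genes, 7 to 9 were lower and 0 to 1 higher with each library left out in turn; the 0 arose without verapamil replicate 1 or 2. Over all genes, 4235 passed with 6 libraries and 2236 to 5042 with 1 left out. Of 98 other pathway genes, 42 were lower and 5 higher with 6 libraries, and 26 to 49 and 1 to 6 with 1 left out. Beside them, 16.3% of all genes were lower (2180) and 15.4% higher (2055) with 6 libraries. With 1 left out, 1222 to 2590 of all genes were lower and 1010 to 2452 higher. Fewer samples are part of how these alternatives are built, and no other cause was tested. By DESeq2's test 9 of the 10 were lower and 1 higher, beside 2147 lower and 1820 higher among all 13366 genes tested.

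The labels do not say whether replicate numbers pair the libraries. Deviations of same-numbered libraries from their group means correlated at 0.009, -0.167 and -0.127. Deviations from a mean of 3 libraries depend on one another, so these values cannot exclude a pairing. With a replicate block, 7 of the 10 genes were lower and 1 higher (Sar1a and Sec31a were lost, adjusted p = 0.174 and 0.072 in edgeR's test). With that block 2953 genes passed in all, 1589 lower and 1364 higher, and 32 pathway genes were lower and 2 higher. An exact sign-flip test on ratios paired by number gives at best p = 0.25 with 3 pairs. Depth of 18.2 M to 21.7 M reads gave each of the 10 genes at least 551.73 reads in every library.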
